A study of Mus musculus with 30 samples.

Results

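The 12 libraries described here are mouse thyroids of 2 months of age, out of 30 thyroid libraries in the series. They were divided by how much thymocyte transcript they held, thymocytes being the developing T cells of the thymus. The 4 thymus-rich libraries are FAD4T males 2 and 3 and FAD4T females 1 and 2, numbered as in their titles. The 8 thymus-poor libraries are FAD4T male 1, FAD4T female 3 and wild-type males 1 to 3 and females 1 to 3. The members were chosen by their own counts of 5 thymocyte markers (Rag1, Dntt, Cd4, Cd8b1 and Ptcra). Differences between thymus-rich and thymus-poor libraries are therefore given as descriptions with no test, and the tests below compare the labelled genotypes.

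All mice had the C57BL/6 strain label and differed by genotype, FAD4T or wild type, and by sex, with 3 libraries in each combination. The labels name no allele, promoter or treatment behind FAD4T. All 4 thymus-rich libraries are FAD4T, so class and genotype cannot be told apart except through the 2 thymus-poor FAD4T libraries. Each group is given as 3 mice, with no litter or dissection day stated, so a p-value here reflects only how far these animals vary. In whole tissue, fewer cells of a type and less RNA per cell cannot be told apart.

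The thymus is where T cells are made. Progenitors from the bone marrow cut and join the gene segments of the T cell receptor with the RAG recombinase, test the beta chain with a pre-T cell receptor, and pass through a double-positive stage that carries both co-receptors, CD4 and CD8. Cortical epithelial cells select these double-positive cells on self peptides, and medullary epithelial cells, which use AIRE to display tissue antigens, remove self-reactive ones. The thymus forms from the same pharyngeal pouches as the parathyroid glands, and thymic tissue can lie beside or within the thyroid in mice. RAG and the pre-T cell receptor are used in developing lymphocytes, so their transcripts separate thymocytes from the mature T cells of blood and lymph nodes.

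Start regions of 3 thymocyte genes and 1 gene of thymic epithelium are shown to place the transcripts in the genome, from 250 bases before to 50 bases after the start in RefSeq on GRCm38.p6. Rag1 encodes the cutting subunit of the recombinase (minus strand, chr2:101649483-101649782), Ptcra the pre-T cell receptor alpha chain (minus strand, chr17:46763663-46763962), Dntt the terminal transferase that adds bases at the joins (plus strand, chr19:41029025-41029324) and Psmb11 the proteasome subunit of cortical thymic epithelium (plus strand, chr14:54625060-54625359). Capitals mark matches on either strand to CAGCTG or CACCTG (E-box motifs), TGTGGT (a Runx motif), AGATAA (the motif of GATA factors) and TGGGAA (an Ikaros motif), with CAGCTG its own reverse complement and none of the 5 overlapping another in the printed lines. The sequences are written 5′ to 3′ on the gene's strand.
Rag1: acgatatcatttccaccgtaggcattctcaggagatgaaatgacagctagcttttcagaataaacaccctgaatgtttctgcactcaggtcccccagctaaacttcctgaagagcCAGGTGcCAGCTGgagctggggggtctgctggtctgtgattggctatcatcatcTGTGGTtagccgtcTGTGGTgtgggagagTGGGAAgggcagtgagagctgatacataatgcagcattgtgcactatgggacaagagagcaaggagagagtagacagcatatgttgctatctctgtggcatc
Ptcra: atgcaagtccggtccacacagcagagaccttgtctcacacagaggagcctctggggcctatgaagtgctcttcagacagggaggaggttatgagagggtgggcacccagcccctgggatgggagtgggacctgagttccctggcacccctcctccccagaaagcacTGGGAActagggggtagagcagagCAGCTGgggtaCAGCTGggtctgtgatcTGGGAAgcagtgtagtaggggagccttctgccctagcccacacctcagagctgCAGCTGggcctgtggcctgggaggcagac
Dntt: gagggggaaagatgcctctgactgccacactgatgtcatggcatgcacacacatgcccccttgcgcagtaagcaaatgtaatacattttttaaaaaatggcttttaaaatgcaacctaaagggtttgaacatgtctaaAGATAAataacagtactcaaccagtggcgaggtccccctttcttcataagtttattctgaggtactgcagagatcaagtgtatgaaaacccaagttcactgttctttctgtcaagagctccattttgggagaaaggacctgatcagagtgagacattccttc
Psmb11: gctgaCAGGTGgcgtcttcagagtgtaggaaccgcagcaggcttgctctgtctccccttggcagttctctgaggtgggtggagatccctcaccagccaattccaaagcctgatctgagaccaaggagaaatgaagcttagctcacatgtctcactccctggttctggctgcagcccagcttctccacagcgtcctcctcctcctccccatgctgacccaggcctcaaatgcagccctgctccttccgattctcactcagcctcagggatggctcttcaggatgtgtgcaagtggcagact
Rag1 held 1 CAGCTG, 1 CACCTG, 2 TGTGGT and 1 TGGGAA, and Ptcra held 3 CAGCTG and 2 TGGGAA. Dntt held 1 AGATAA and Psmb11 held 1 CACCTG. Of these motifs, CAGCTG stood in 16.3% of all 32851 start regions of this length and in 30.5% of the 105 start regions of 66 genes that were higher in the thymus-rich libraries. The shares were 20.2% and 37.1% for CACCTG, 16.8% and 21.9% for TGTGGT, 11.2% and 11.4% for AGATAA, and 25.6% and 20% for TGGGAA. Several start regions can belong to 1 gene, and a match is a run of letters, not a measured binding site.

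The 4 thymus-rich libraries each held more transcript of the 4 genes of receptor recombination and pre-receptor assembly than any thymus-poor library. CPM are counts per 1000000 counts of the TMM-scaled library total, and a count of 0 allows up to 3 counts, which is 0.164 to 0.197 CPM in these libraries. Rag1 (ENSMUSG00000061311, chromosome 2, 101638282 to 101649501) stood at 66.8, 15.2, 20.8 and 29.2 CPM in FAD4T male 2, male 3, female 1 and female 2, 0.109 and 0.172 in the thymus-poor FAD4T libraries male 1 and female 3, and 0 to 1.74 (median 0.0278) in the 6 wild-type libraries. Rag2 (ENSMUSG00000032864, chromosome 2, 101624718 to 101632529), its partner in the recombinase and its neighbour on the chromosome, stood at 9.94, 2.17, 4.65 and 6.75 CPM in the thymus-rich libraries, 0 and 0 in the 2 thymus-poor FAD4T libraries and 0 to 0.755 (median 0.0278) in wild type. Dntt (ENSMUSG00000025014, chromosome 19, 41029275 to 41059523) stood at 53.1, 8.96, 17.9 and 34.9 CPM in the thymus-rich libraries, 0.164 and 0.115 in the 2 thymus-poor FAD4T libraries and 0 to 1.28 (median 0.126) in wild type. No thymus-poor library reached the lowest thymus-rich value of any of the 3 genes. The wild-type maximum was female 1 for each of them.

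Ptcra (ENSMUSG00000036858, chromosome 17, 46755663 to 46763712) was the scarcest of the 5 markers, at 3.89, 0.389, 1.16 and 2.21 CPM in the thymus-rich libraries, 0 and 0 in the 2 thymus-poor FAD4T libraries and 0 to 0.116 (median 0.0328) in wild type, or 70, 7, 21 and 40 counts in the thymus-rich libraries. FAD4T male 3, with 7 counts of Ptcra, lay closest to the thymus-poor range. The log2 differences between the class means, on the log2(CPM + 0.5) scale, which understates low genes, were 5.38 for Rag1, 3.3 for Rag2, 5.11 for Dntt and 1.94 for Ptcra.

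Both co-receptors were present in the same libraries. Cd8a (ENSMUSG00000053977, chromosome 6, 71373427 to 71379173), one chain of the CD8 co-receptor, stood at 120.3, 33.4, 50.5 and 83.3 CPM in FAD4T male 2, male 3, female 1 and female 2, 1.09 and 0.861 in the thymus-poor FAD4T libraries male 1 and female 3, and 0.18 to 10.5 (median 0.474) in the 6 wild-type libraries. Cd8b1 (ENSMUSG00000053044, chromosome 6, 71322788 to 71337494), the chain typical of thymocytes and conventional CD8 T cells, stood at 44.5, 10.2, 17.8 and 27.4 CPM in the thymus-rich libraries, 0.763 and 0.23 in the 2 thymus-poor FAD4T libraries and 0 to 2.32 (median 0.265) in wild type. Cd4 (ENSMUSG00000023274, chromosome 6, 124864692 to 124888221) stood at 31.5, 9.74, 15.7 and 24 CPM in the thymus-rich libraries, 0.981 and 0.976 in the 2 thymus-poor FAD4T libraries and 0.197 to 2.21 (median 0.425) in wild type. All 3 were higher in each thymus-rich than in each thymus-poor library, with log2 differences of 5.52, 4.62 and 4.05. The median log2 difference over Rag1, Rag2, Dntt, Ptcra, Cd4, Cd8a and Cd8b1 was 4.62, and the median over all 17568 genes tested was 0.02.

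Per kilobase of exon, among Trac and the 7 genes above, the thymus-rich mean levels were highest for Cd8a (19.8 RPKM, counts per 1000 bases and 1000000 counts) and Cd8b1 (16.9), followed by Trac (14.3) and Dntt (13.5). Cd4 (5.02) and Rag1 (4.99) came next, and Rag2 (1.72) and Ptcra (1.49) were lowest. These levels vary about as widely between the 4 libraries as the CPM given above, so neighbours in that order need not differ.

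The border between the classes was set by FAD4T male 3 and wild-type female 1. The 5 markers together took 44.5 CPM (800 counts) in FAD4T male 3, the lowest of the thymus-rich libraries, and 7.67 CPM (132 counts) in wild-type female 1, the highest of the thymus-poor ones. With Rag2 and Cd8a added, the sum was 330.1, 80.1, 128 and 208 CPM in the thymus-rich libraries. It was 3.11 and 2.35 in the thymus-poor FAD4T libraries (57 and 41 counts), 18.9 in wild-type female 1 (326 counts) and 0.902 to 1.68 in the other 5 wild-type libraries (15 to 29 counts). Wild-type female 1 thus held a small amount of the same transcripts, Rag1 and Cd8a among them.

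**Figure D1:**
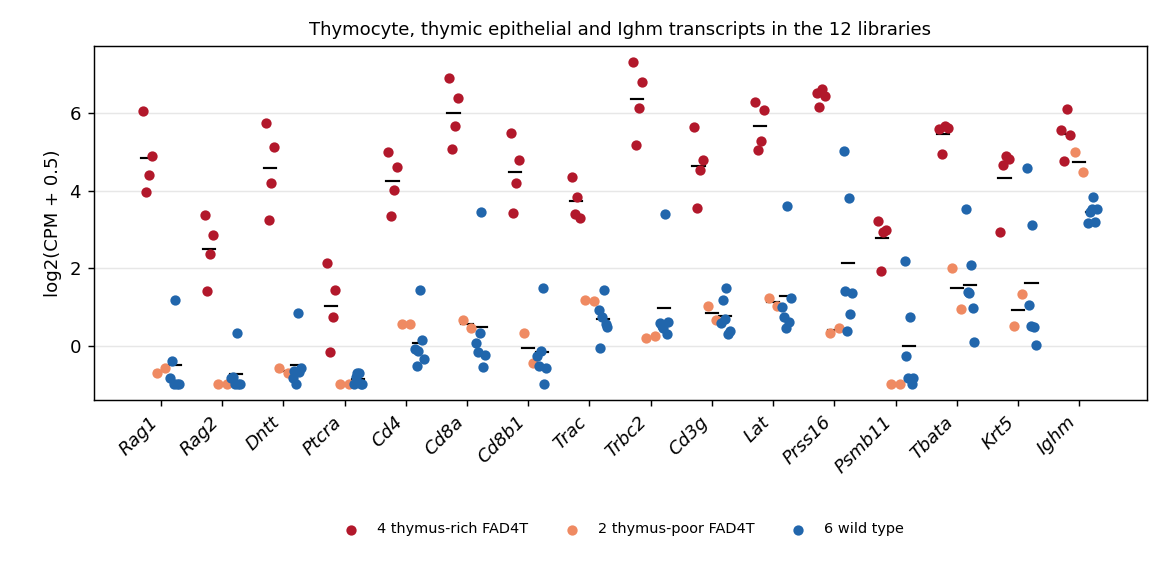
Levels of 16 genes in the 12 libraries, as log2(CPM + 0.5), with 1 point per library, black bars at the class means, and colours for the 4 thymus-rich FAD4T, the 2 thymus-poor FAD4T and the 6 wild-type libraries. The thymus-rich points lie above all others for each gene from Rag1 to Prss16 and for Tbata, while wild-type male 1 stands among them for Krt5 and all FAD4T points lie above wild type for Ighm.

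Over the whole transcriptome, 108 of 17568 genes (0.615%) were at least 4-fold higher in the thymus-rich libraries with no overlap between the classes, and 10 (0.0569%) were lower by the same rule. Of the 108, 94 were protein-coding and 5 were T cell receptor genes. Against the 2 thymus-poor FAD4T libraries alone, 126 genes (0.717%) were higher and 38 (0.216%) lower, and against the 6 wild-type libraries 110 (0.626%) and 10 (0.0569%). Of the 108 genes, 98 were also higher against the thymus-poor FAD4T libraries and 103 against wild type by the same rule. The highest thymus-rich library was FAD4T male 2 for 91 of the 108 genes. Among the 8 thymus-poor libraries, the highest was wild-type female 1 for 87 of the 108 and wild-type male 1 for 11, beside 5071 and 1876 of all 17568 genes.

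The T cell receptor complex and its first signalling steps followed the markers. All 18 genes of that list were higher without overlap, 17 of them at least 4-fold, with a median log2 difference of 3.22. Without a fold limit, 8.69% of all genes were higher without overlap and 7.76% lower. Trac (ENSMUSG00000076928, chromosome 14, 54220521 to 54224206), the constant region of the alpha chain, stood at 19.99, 10.1, 13.9 and 9.35 CPM in the thymus-rich libraries, 1.74 and 1.72 in the 2 thymus-poor FAD4T libraries and 0.459 to 2.21 (median 1.06) in wild type. Trbc2, a constant region of the beta chain, stood at 161, 35.6, 70.3 and 111 CPM in the thymus-rich libraries, 0.654 and 0.689 in the 2 thymus-poor FAD4T libraries and 0.722 to 9.99 (median 0.959) in wild type. Trbc1 and Trbc2 are near-identical copies, so the split of reads between them is uncertain.

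Among the CD3 chains, which carry the receptor's signal, Cd3g stood at 49.9, 11.2, 22.6 and 27.3 CPM in the thymus-rich libraries, 1.53 and 1.09 in the 2 thymus-poor FAD4T libraries and 0.722 to 2.32 (median 1.05) in wild type, and Cd3d and Cd3e were at 5.73 to 23.3 and 3.89 to 18.5 CPM in the thymus-rich libraries against 0 to 2.09 (median 0.558) and 0.113 to 2.21 (median 0.36) in the thymus-poor ones. Lat, the adaptor that gathers signalling proteins under the receptor, stood at 78.2, 32.6, 38.3 and 67.7 CPM in the thymus-rich libraries, 1.85 and 1.55 in the 2 thymus-poor FAD4T libraries and 0.868 to 11.8 (median 1.34) in wild type. Its log2 difference was 4.44, and wild-type female 1 held the wild-type maximum. Themis, which tunes receptor signals during selection in the thymus, stood at 33.8, 5.34, 12.5 and 17.7 CPM in the thymus-rich libraries, 0.382 and 0.115 in the 2 thymus-poor FAD4T libraries and 0.0563 to 0.987 (median 0.143) in wild type. Lck, the kinase bound to the co-receptors, was at 51.4 to 116 CPM against 5.57 to 17.1 (median 8.06). Thy1, an abundant thymocyte surface protein that other cells also carry, had the smallest difference of the list (1.89), at 56.2 to 138 CPM against 18.9 to 35.5 (median 23.8).

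Variable segments of the receptor genes were also counted. Of 35 annotated beta-chain V segments, 20, 14, 19 and 18 had at least 1 count in FAD4T male 2, male 3, female 1 and female 2, and 0 to 7 in the thymus-poor libraries. Of 128 annotated alpha-chain V segments, 32, 21, 24 and 14 had a count in the thymus-rich libraries and 0 to 8 in the thymus-poor ones. The thymus-rich libraries therefore held many different V segments of both chains. Segments share sequence, so the assignment to single segments is uncertain.

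Of 12 transcription factors of the T lineage, 9 were higher without overlap, 5 of them at least 4-fold, with a median log2 difference of 1.74. Over all genes the shares were 8.69% without a fold limit and 0.615% at 4-fold. Tcf7, an early factor of T cell commitment, stood at 143, 30.9, 48.4 and 63.5 CPM in the thymus-rich libraries, 5.23 and 5.11 in the 2 thymus-poor FAD4T libraries and 4.56 to 9.58 (median 6.31) in wild type. Lef1, its relative, stood at 16.4, 4.84, 12.6 and 11.2 CPM in the thymus-rich libraries, 0.382 and 0.459 in the 2 thymus-poor FAD4T libraries and 0.444 to 1.86 (median 0.532) in wild type. Myb, which double-positive thymocytes need, was at 24.5 to 66.4 CPM against 1.57 to 8.54 (median 3.07), and Bcl11b, the factor that locks in T cell identity, at 5.12 to 27.5 against 1.98 to 3.33 (median 2.42). Ets1 overlapped between the classes at 61.5 to 85.9 against 51.6 to 75.2 (median 63.6). Gata3, which parathyroid cells also use, overlapped too, with its lowest values of 2.66 CPM in FAD4T female 1 and 0.902 in wild-type female 2. The parathyroid list, 4 genes with Gcm2 and Pth, was lowest in the same 2 libraries (level 3.93 and 4.37 against 9.23 to 11.17 in the other 10, as the mean of log2(CPM + 1)).

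Genes of the double-positive stage were higher without overlap for 6 of 8 members, of which 7 passed the filter on low counts. Among them 3 were at least 4-fold higher (list median 1.79). The shares of all genes were 8.69% without a fold limit and 0.615% at 4-fold. Arpp21 stood at 29.6, 6.12, 10.8 and 18.6 CPM in the thymus-rich libraries, 0.545 and 0.115 in the 2 thymus-poor FAD4T libraries and 0.111 to 2.61 (median 0.233) in wild type. Ccr9, the receptor that holds thymocytes near CCL25-producing epithelium, stood at 33.8, 9.68, 12 and 18.2 CPM in the thymus-rich libraries, 0.327 and 0.746 in the 2 thymus-poor FAD4T libraries and 0.338 to 2.79 (median 0.648) in wild type. Slamf6, a surface receptor of cortical thymocytes, was at 3.12 to 16.2 CPM against 0.109 to 0.581 (median 0.171). Cd1d1, which presents lipids and is widely expressed, overlapped, at 18.8 to 45.9 against 12.1 to 35 (median 21.1).

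Of 12 genes of mature T cells and of thymic exit, 11 passed the filter and 5 were higher without overlap, with a list median of 1.02. Beside this and the gamma delta count below, 8.69% of all genes were higher without overlap. Cd69, an activation marker of selected thymocytes, was at 3.5 to 5.27 CPM against 0.0601 to 0.459 (median 0.276). Ccr7, the receptor that draws selected cells into the medulla, stood at 1.05, 4.56, 6.09 and 1.49 CPM in the thymus-rich libraries, 0 and 0.172 in the 2 thymus-poor FAD4T libraries and 0.0601 to 0.813 (median 0.211) in wild type. S1pr1, the exit receptor that vessels also carry, overlapped at 33.3 to 46.8 against 21.6 to 47.9 (median 31.8), and so did Klf2 and Ikzf2. Foxp3, the factor of regulatory T cells, was at 0 to 0.723 CPM in the thymus-rich libraries and 0 to 0.394 in the others, overlapping. Among gamma delta T cell genes, 2 of 5 were higher without overlap, Trdc at 2.78 to 16.5 against 0.218 to 1.39 (median 0.819) CPM and Cd163l1 at 5.31 to 8.79 against 1.62 to 4.41 (median 3.02), and Il17a had 0 counts in all 12 libraries.

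Transcripts of the thymic epithelium accompanied the thymocyte transcripts, but not in every library. Prss16, the thymus-specific serine protease of cortical epithelium, stood at 92.2, 71.4, 98.5 and 87.4 CPM in FAD4T male 2, male 3, female 1 and female 2, 0.763 and 0.861 in the thymus-poor FAD4T libraries male 1 and female 3, and 0.81 to 31.9 (median 2.12) in the 6 wild-type libraries. The thymus-rich values lay within 71.4 to 98.5 CPM, a narrower range than that of the thymocyte genes. Psmb11 (ENSMUSG00000072423, chromosome 14, 54625310 to 54629556) stood at 8.88, 3.34, 7.19 and 7.41 CPM in the thymus-rich libraries, 0 and 0 in the 2 thymus-poor FAD4T libraries and 0 to 4.05 (median 0.193) in wild type. Tbata, a thymic stromal gene, stood at 47.7, 30.4, 50.5 and 48.5 CPM in the thymus-rich libraries, 3.54 and 1.43 in the 2 thymus-poor FAD4T libraries and 0.563 to 11 (median 2.09) in wild type, and Crip3, a LIM-domain protein of the thymus, at 27.8, 24.6, 33.4 and 32.3 CPM in the thymus-rich libraries, 0.164 and 0.746 in the 2 thymus-poor FAD4T libraries and 0.563 to 10.7 (median 1.04) in wild type. The 15 largest higher genes named by rule also held Acap1, a regulator of membrane traffic, at 27.8 to 55.9 CPM against 1.08 to 8.31 (median 1.54), and Nsg2 at 5.4 to 19.2 against 0 to 1.68 (median 0.242). Ccl25, the chemokine of cortical epithelium, was at 29.8 to 52.2 CPM against 6.43 to 21.8 (median 8.9). Of 8 cortical genes, 3 were higher without overlap (Prss16, Tbata and Ccl25) and 0 lower, beside 8.69% and 7.76% of all genes. The summed CPM of the 8 genes did not rise, at 535 to 896 in the thymus-rich libraries. It was 971 to 1132 in the thymus-poor FAD4T libraries and 471 to 1171 in wild type.

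Wild-type male 1, a thymus-poor library by its thymocyte markers, carried epithelial transcripts of the thymus. It held Prss16 at 31.9 CPM, Psmb11 at 4.05, Ccl25 at 21.8, Tbata at 11, Crip3 at 10.7 and the basal keratin Krt5 at 23.4. Its Rag1 was 0.0555 and its Cd8a 0.555 CPM, near the other thymus-poor libraries. Its level of the cortical list was 5.0, against 5.02 to 5.69 in the thymus-rich libraries and 3.59 to 3.93 in the other wild-type ones. In this library the name thymus-poor thus describes thymocyte transcripts and not epithelial ones. Wild-type female 1 held Prss16 at 13.6 CPM with Cd8a at 10.5, and its level of the cortical list was 3.85. Foxn1, the master factor of thymic epithelium, did not separate the classes, at 4.7 to 6.83 CPM against 1.8 to 6.55 (median 3.88).

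**Figure D2:**
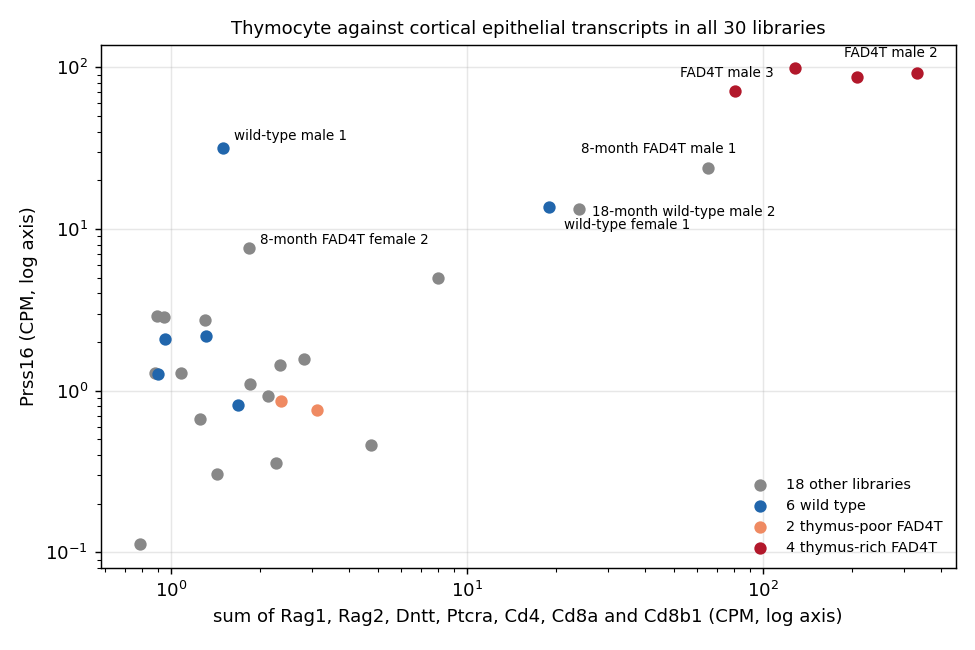
Each of the 30 libraries by its summed CPM of 7 thymocyte genes (x, log axis) and its CPM of Prss16 (y, log axis), coloured by class. The thymus-rich libraries stand at the upper right, wild-type male 1 has Prss16 at 31.9 CPM with a thymocyte sum of 1.5, and 8-month FAD4T male 1 lies at 64.9 and 23.9 CPM.

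Medullary epithelium was represented at lower levels. Aire stood at 1.55, 1.84, 4.15 and 1.49 CPM in the thymus-rich libraries, 0.0545 and 0.23 in the 2 thymus-poor FAD4T libraries and 0 to 0.407 (median 0.0601) in wild type, and Fezf2, the other factor for display of tissue antigens, at 0.611, 1.39, 1.88 and 0.775 CPM in the thymus-rich libraries, 0 and 0 in the 2 thymus-poor FAD4T libraries and 0 to 0.407 (median 0) in wild type. Both were higher without overlap, the only ones among the 10 of 12 list members that passed the filter, beside 8.69% of all genes. Ccl19, a chemokine of the medulla that did not pass the filter, was at 0.498 to 0.779 CPM against 0 to 0.281 (median 0.114), values of 14 counts or fewer. Krt5 overlapped, at 7.16 to 29.5 CPM against 0.506 to 23.4 (median 1.25), with its thymus-poor maximum in wild-type male 1. Ccl21a is listed at 0 in all 12 libraries and has near-identical copies, so its level is uncertain. Epcam, which thyroid follicle cells also carry, was lower without overlap, at 184 to 265 against 300.3 to 509 (median 417). None of the 5 tuft-like epithelial genes separated the classes.

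The 4 thymus-rich libraries differed among themselves in stage and region genes. The ratio of Cd4 to Cd8a counts was 0.262, 0.291, 0.311 and 0.288, and that of Cd8b1 to Cd8a 0.37, 0.306, 0.352 and 0.33, in FAD4T male 2, male 3, female 1 and female 2. Ratios of stage genes spread more widely. The ratio of Ccr7 to Cd8a was 0.00877 and 0.0179 in male 2 and female 2 and 0.136 and 0.12 in male 3 and female 1, on 19, 82, 110 and 27 counts of Ccr7 in the order above. Trac to Rag1 was 0.299 and 0.321 in the first pair and 0.663 and 0.67 in the second. Aire to Psmb11, medulla to cortex, was 0.175 and 0.201 against 0.55 and 0.577, on 28, 33, 75 and 27 counts of Aire. Prss16 to Cd8a, epithelium to thymocyte, was 0.766 and 1.05 against 2.13 and 1.95. Relative to the gene each ratio is set on, male 2 and female 2 had less Ccr7, Trac, Aire and Prss16 than male 3 and female 1. Dntt to Cd8a was 0.441 and 0.419 in the first pair and 0.268 and 0.354 in the second. Mki67 to Cd8a was 0.476 and 0.445 against 0.166 and 0.361. Rag1 to Cd8a did not divide into these pairs, at 0.556 and 0.35 in the first and 0.454 and 0.412 in the second. With 4 libraries no test was made, and ratios of genes of different length compare libraries, not genes.

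Proliferation genes also varied among the thymus-rich libraries. Mki67 stood at 57.3, 5.56, 18.3 and 37 CPM in the thymus-rich libraries, 4.91 and 5.28 in the 2 thymus-poor FAD4T libraries and 1.26 to 4.12 (median 3.06) in wild type. Top2a, a topoisomerase of dividing cells, was at 37.6, 2.67, 11.7 and 25.5 CPM in the thymus-rich libraries and at 0.842 to 4.08 (median 2.59) in the thymus-poor ones. FAD4T male 2 and female 2 were highest for both, and male 3 lay beside the thymus-poor libraries. Of 20 cell cycle genes 3 were higher without overlap (Mki67, Ccna2 and Foxm1), 1 of them at least 4-fold, with a list median of 1.47. Replication genes such as Mcm2 and Pcna overlapped, at 13.1 to 25.5 against 13 to 22.8 (median 18) CPM and 40.1 to 73.4 against 39.3 to 63.1 (median 53.4). Of 8 apoptosis genes of thymocyte selection 1 was higher without overlap, and the median was -0.09. Beside this and the cell cycle count, 8.69% of all genes were higher without overlap. Of 8 Notch pathway genes none separated the classes. Dtx1, a Notch target, was lowest in the 2 libraries that were low in parathyroid genes, FAD4T female 1 (4.43 CPM) and wild-type female 2 (3.97).

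Markers of other immune cells and of lymph nodes were mostly not separated. Over all genes, 8.69% were higher without overlap and 7.76% lower. Glycam1, a gene of lymph node vessels, was at 0 to 0.0601 CPM in the 12 libraries, and Chst4, another such gene, had 0 counts in all of them. Of 6 lymph node genes 3 passed the filter and none was higher or lower without overlap. Cxcl13, the B cell chemokine, was at 40.7 to 72.3 CPM against 31.3 to 108 (median 81.6). Among 8 dendritic cell genes 2 were higher without overlap, Ccl22 at 1.5 to 4.26 CPM against 0.18 to 0.844 (median 0.504) and Zbtb46 at 44.7 to 47.3 against 29.5 to 43.2 (median 39.1), and 1 of 8 macrophage genes was. B cell genes did not separate the classes, with Ms4a1 at 0.223 to 1.27 CPM against 0 to 0.421 (median 0.18). Of 12 genes of antigen processing and MHC, B2m, H2-K1, Tap2 and Psmb8 were higher without overlap, with a list median of 0.43 and B2m at 615 to 796 CPM against 449 to 601 (median 508). None of 12 interferon-stimulated genes was higher without overlap.

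**Figure D3:**
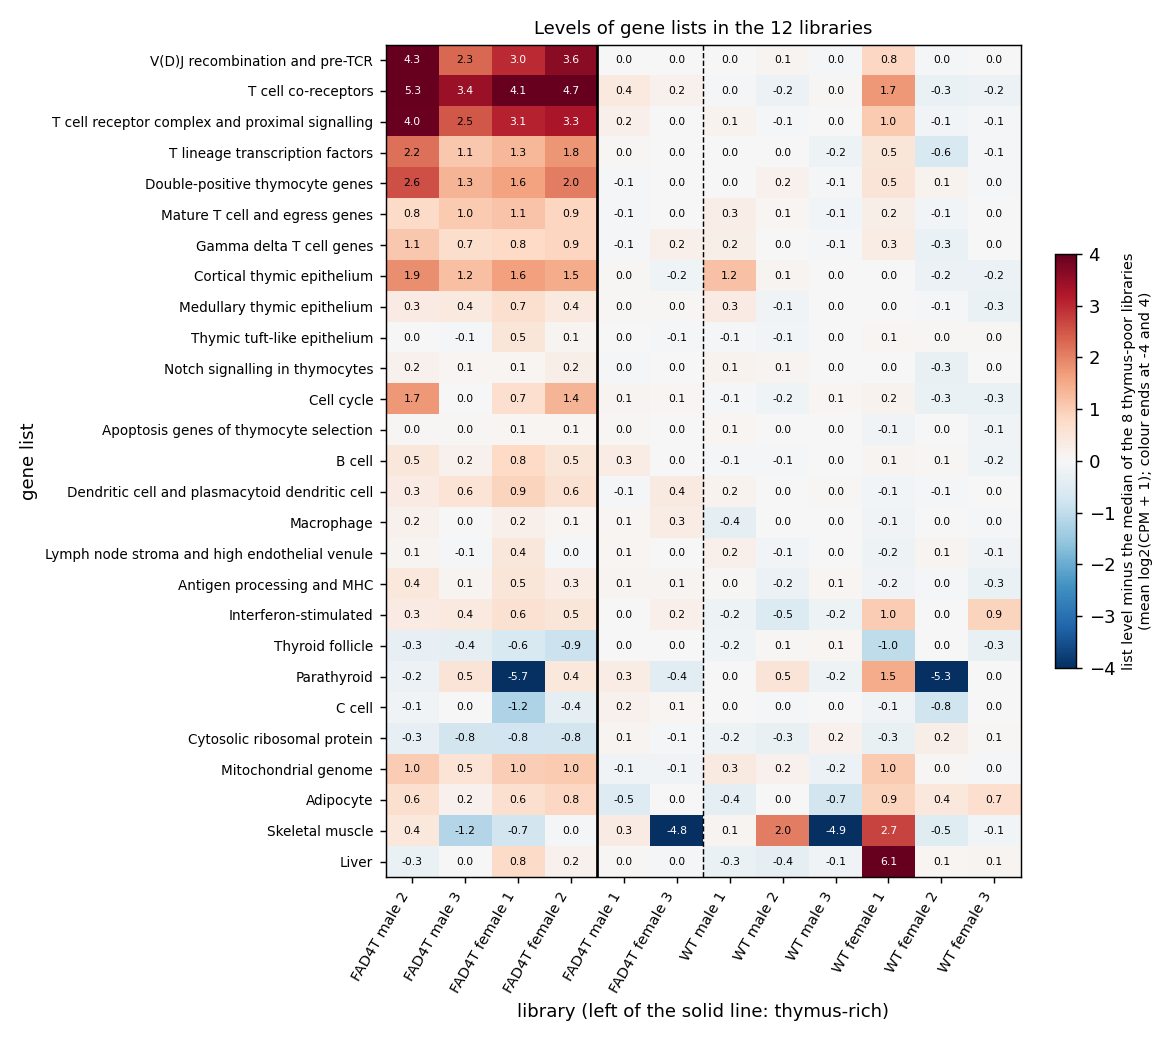
Level of 27 gene lists in the 12 libraries, as the mean of log2(CPM + 1) over the list's genes minus the median of the 8 thymus-poor libraries, with the value printed in each cell. The first 4 columns are the thymus-rich libraries, high in the T cell lists. They are low in ribosomal protein genes, but FAD4T male 2 (8.67 before the median is subtracted) lies beside wild-type male 2 (8.68) and female 1 (8.69). Wild-type male 1 comes next in the cortical epithelial list, and wild-type female 1 lies within the thymus-rich range for the mitochondrial genome.

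Genes lower in the thymus-rich libraries were fewer and had a wide range in the others. Csrp1, a LIM-domain protein of the actin skeleton, stood at 182, 158, 162 and 108 CPM in FAD4T male 2, male 3, female 1 and female 2, 936 and 940.1 in the thymus-poor FAD4T libraries male 1 and female 3, and 183 to 1254 (median 959) in the 6 wild-type libraries. The wild-type minimum, in female 1, lay just above the thymus-rich maximum, and male 1 was next at 460.5 CPM. Itm2c, a BRI-family membrane protein, stood at 104, 85.4, 52.6 and 78.7 CPM in the thymus-rich libraries, 459 and 450.3 in the 2 thymus-poor FAD4T libraries and 205 to 540.1 (median 413) in wild type. Idi1, an isomerase of isoprenoid and cholesterol synthesis, stood at 1.05, 0.946, 1.83 and 1.05 CPM in the thymus-rich libraries, 4.96 and 6.54 in the 2 thymus-poor FAD4T libraries and 2.5 to 12.3 (median 7.57) in wild type. Cyp39a1, an oxysterol hydroxylase, was at 5.86 to 7.07 CPM against 10.7 to 43.2 (median 33.1), and Slc25a30, a mitochondrial carrier, at 0.779 to 3.71 against 4.01 to 17 (median 12.8). Eif2s3x, a translation initiation subunit with a close copy on the Y chromosome that makes its counts uncertain, was at 3.34 to 9.46 against 14.8 to 89.97 (median 47.5). The rule for the 10 largest lower genes also named Pcdhgc3, a protocadherin, at 0.556 to 2.0 against 3.43 to 14.1 (median 9.45) CPM. Emc10, a subunit of the membrane complex that inserts proteins in the endoplasmic reticulum, was at 17.6 to 25 against 31.2 to 111 (median 83.8), and Lrrc61 at 0.83 to 1.34 against 2.21 to 8.33 (median 6.08), both just short of 4-fold.

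Other features of the libraries are given here beside the lower genes. At a 2-fold limit, 262 genes were lower without overlap, and the lowest thymus-poor library was wild-type female 1 for 201 of them (76.7%) and wild-type male 1 for 48 (18.3%), beside 26.2% and 8.6% of all genes. Tg, which encodes thyroglobulin and marks thyroid follicles, was abundant in all 12 libraries and took 4.64% to 8.86% of counts in the thymus-rich libraries, 5.58% in wild-type female 1 and 12.1% in wild-type male 1, and 15.2% to 21.1% in the other 6. Transcripts of the mitochondrial genome took 4.07% to 6.72% in the thymus-rich libraries, 5.94% in wild-type female 1 and 1.94% to 3.40% in the other 7. TMM factors were 1.14 to 1.23 in the thymus-rich and 0.94 to 1.12 in the thymus-poor libraries. The part of these features in the lower genes was not tested. The 14 thyroid follicle genes had a median log2 difference of -0.31. Of the 13 that passed the filter none was lower without overlap, beside 7.76% of all genes.

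Of 12 cytosolic ribosomal protein genes 6 were lower without overlap, beside 7.76% of all genes, with a list median of -0.66. Rpl3 stood at 315, 179.5, 199 and 179.6 CPM in the thymus-rich libraries, 764 and 705 in the 2 thymus-poor FAD4T libraries and 318 to 809 (median 659.7) in wild type, and Rplp0 at 486, 339, 319.7 and 335 CPM in the thymus-rich libraries, 894 and 763 in the 2 thymus-poor FAD4T libraries and 518 to 992 (median 729.9) in wild type. Rps18 pointed the other way with overlap, at 432 to 486 CPM against 216 to 473 (median 320.5). Among protein-coding genes of at least 5 CPM, the median log2 difference was 0.21 for 243 genes with 500 to 1000 bases of exon and between −0.11 and −0.02 in the 4 longer groups. By GC content of the longest transcript it was 0.10 in 2646 genes of 55% or more and −0.16 in 2953 genes of 45% to 50%. Whether length or GC content bears on the lower genes was not tested.

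**Figure D4:**
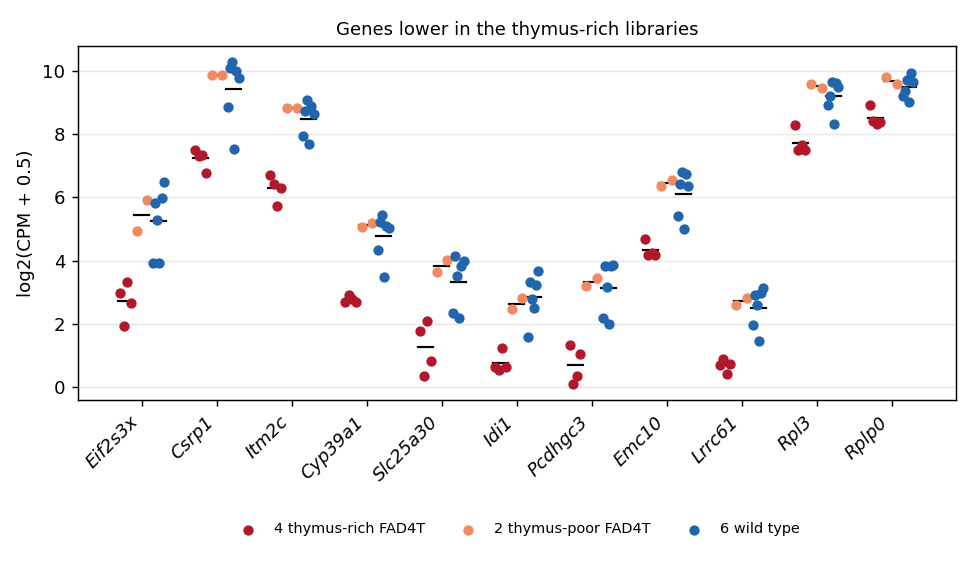
Levels of 9 lower genes named by rule and of 2 ribosomal protein genes in the 12 libraries, as log2(CPM + 0.5), with black bars at the class means. The thymus-rich points lie below all others for each gene, and the 2 lowest wild-type points of most genes, female 1 and male 1, lie between the thymus-rich libraries and the rest.

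The labelled genotypes were compared by edgeR's quasi-likelihood test with sex in the model, over 6 FAD4T and 6 wild-type libraries. Of 17568 genes, 1 rose in FAD4T (0.00569%) and 0 fell (0.0%) at an adjusted p under 0.05, with 3276 genes at an unadjusted p under 0.05. The gene was Ighm, the constant region of the immunoglobulin M heavy chain. DESeq2 called 262 genes higher (1.5%) and 21 lower (0.12%) in the same 12 libraries. The higher ones included 3 of 4 recombination and pre-receptor genes, all 3 co-receptor genes and 17 of 18 receptor complex genes. Markers among these chose the libraries, so for them the call is no test of genotype. Without the 4 thymus-rich libraries, edgeR called 0 of 18499 genes, with 257 at an unadjusted p under 0.05, and DESeq2 called 9 (0.0492%). Of those 9, 8 were lower in FAD4T and 7 had counts in 1 of the 8 libraries, wild-type female 1, in which the liver list stood at a level of 6.86 against 0.40 to 0.89 in the other wild-type libraries. The remaining 2 were Ighm (higher, DESeq2 adjusted p = 0.00181) and Klf15 (lower, DESeq2 adjusted p = 0.00965). The thymus-poor FAD4T group then held 2 libraries.

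Ighm was higher in every FAD4T library, thymus-rich or thymus-poor, than in the 6 wild-type ones. It stood at 31.6, 47 and 26.9 CPM in FAD4T males 1 to 3 and 68.4, 43.3 and 21.9 in FAD4T females 1 to 3. Wild-type males 1 to 3 held 8.5, 10.4 and 11 CPM, and wild-type females 1 to 3 held 13.7, 8.6 and 11.1. The thymus-rich range overlapped the 2 thymus-poor FAD4T values. The log2 fold change was 1.92 (SE 0.24, edgeR adjusted p = 0.0465). Without the thymus-rich libraries it was 1.36 (SE 0.21, unadjusted p = 8.52e-05, edgeR adjusted p = 0.99996). The call was lost in each of 11 fits that left out 1 library (adjusted p 0.0576 to 0.263) and held without FAD4T female 3 (0.00198). Outside the comparison, the 2-month wild-type males with title numbers 4 to 6 held 16.7, 16.4 and 41.4 CPM, and the last of these lies within the FAD4T range.

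Igkc, the kappa light chain constant region, was singled out after its values were seen. It stood at 10.3, 8.96, 56.2 and 40.4 CPM in the thymus-rich libraries and 15.2 and 3.85 in the thymus-poor FAD4T ones. In wild type it was 4.82 in female 1 and 0.289 to 1.0 in the other 5. FAD4T female 3 lay below wild-type female 1, so the genotypes overlapped. Other B cell genes were low in both genotypes, with Pax5 at most 0.779 and Cd79a at most 2.05 CPM in the 12 libraries.

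For the thymocyte genes the genotype fits are given as values with no test, since markers among them chose the libraries and all 4 are FAD4T. Over the 12 libraries the log2 fold change was 5.98 for Rag1, 4.79 for Cd8a and 4.4 for Cd4. Without the thymus-rich libraries it was -0.92, -0.32 and 0.76, a fall that follows from leaving out the libraries in which these genes were highest. For Prss16 the pair was 2.83 and -3.26, and wild-type male 1 and female 1 held the highest wild-type levels. The 7 thymocyte genes together took 3.11 and 2.35 CPM in the thymus-poor FAD4T libraries. They took 18.9 CPM in wild-type female 1 and 0.902 to 1.68 in the other wild-type libraries of the comparison. The part of wild-type female 1 in the negative signs was not tested.

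Ighm aside, which the naming rule leaves out as an antigen receptor gene, no gene passed, and the smallest unadjusted p among higher genes belonged to Tap1, the peptide transporter of antigen presentation, with a log2 fold change of 0.54 (SE 0.09, edgeR adjusted p = 0.234). It stood at 43.8, 35.7, 48.1 and 43.9 CPM in the thymus-rich libraries, 40.1 and 39.4 in the 2 thymus-poor FAD4T libraries and 25.2 to 34.2 (median 28.1) in wild type, and without the thymus-rich libraries the fold change was 0.49 (SE 0.14, edgeR adjusted p = 0.99996). Vav1, a signalling protein of blood cells, stood at 16.5, 10.2, 13.2 and 15.9 CPM in the thymus-rich libraries, 5.23 and 5.17 in the 2 thymus-poor FAD4T libraries and 2.69 to 4.27 (median 3.52) in wild type, and Nckap1l, an actin regulator of blood cells, at 24.8, 16.6, 21.6 and 22.1 CPM in the thymus-rich libraries, 14.6 and 16.4 in the 2 thymus-poor FAD4T libraries and 9.27 to 11.8 (median 11.6) in wild type. Their log2 fold changes were 1.69 and 0.81 with, and 0.62 and 0.5 without, the thymus-rich libraries. On the lower side Gnai1, Ugp2 and Pemt were at -0.55, -0.54 and -0.99, none passing. Without the thymus-rich libraries the smallest p were those of Tap1, Ripor2 (0.58) and Arl4c (0.84) among higher genes. Among lower genes they were Klf15 (-0.98), Apod (-0.84) and Ankrd9 (-1.21). App, the amyloid precursor gene, was at 527 to 792 CPM in the thymus-rich and 479 to 1026 (median 957) in the thymus-poor libraries, overlapping.

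In the 18 libraries that the division did not use, the thymocyte genes were read per library, and the 108 higher genes in those of 8 months. In FAD4T male 1 of 8 months, the 7 thymocyte genes took 64.9 CPM, with Rag1 at 11.7, Dntt at 13, Cd4 at 8.83, Cd8a at 20.3, Prss16 at 23.9 and Psmb11 at 7.32. The other 17 libraries held 0.783 to 23.9 CPM of the 7. Of the 108 genes, 98 (90.7%) were highest in that library among the 12 of 8 months, beside 1648 of 17567 genes in all (9.38%). Their median log2 difference from the other 11 was 1.51, and −0.03 over all genes, and 27 of them (25.0%) were at least 4-fold higher, beside 1.29%. FAD4T male 1 of 8 months is 1 library, singled out for its sum of the 7 thymocyte genes, and no test across libraries was made. All of the 7 but Ptcra are among the 108, so these shares are a description and not a check. Each of the other 11 was highest for 0 to 3 of the 108 genes.

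In 8-month FAD4T male 1, 0 of the 10 lower genes were at least 4-fold higher, and their median log2 difference from the other 11 libraries was −0.28. That difference was above 0 for 1 of the 10 lower genes, 106 of the 108 higher genes and 7933 of all 17567. Csrp1 stood there at 851 CPM. Tg took 16.0% and mitochondrial transcripts 3.87% of its counts, inside the range of the other 8-month libraries (10.4% to 27.0% and 2.83% to 4.08%). Over all 18 libraries Csrp1 was never below 513 CPM and Itm2c never below 402, against thymus-rich maxima of 182 and 104. Idi1 lay within the thymus-rich range in 1 of the 18, at 1.57 CPM in wild-type male 5 of 2 months. Eif2s3x, Idi1 and Pcdhgc3 were each below the lowest thymus-poor value in 2 of the 18 libraries, and Slc25a30 in 1.

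Smaller amounts of the thymus transcripts were present in 2 further libraries. Wild-type male 2 of 18 months held 23.9 CPM of the 7 thymocyte genes, with Cd8a at 9.64, Rag1 at 3.27 and Prss16 at 13.3, and its Ighm was 439 CPM, the highest of the 18 (median 28.4). Wild-type female 3 of 8 months held 8.0 CPM of the 7, with Cd8a at 2.82 and Prss16 at 4.98. Both are wild type. FAD4T female 2 of 8 months had Prss16 at 7.67 CPM and Psmb11 at 1.49 with Rag1 at 0, the epithelial genes without the thymocyte ones, as in wild-type male 1 of 2 months.

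**Figure D5:**
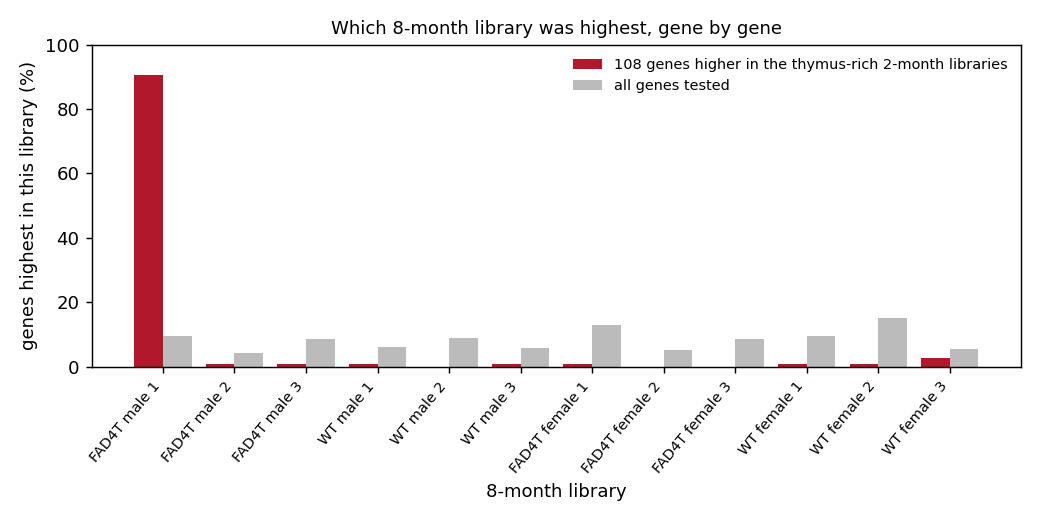
For each of the 12 libraries of 8 months, the percentage of the 108 genes higher in the thymus-rich 2-month libraries that were highest in it (red) and the same for all 17567 genes (grey). FAD4T male 1 takes 90.7% of the 108 genes and 9.38% of all genes.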

How the data were processed

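For each of 30 mouse thyroid libraries the authors deposited gene counts, whole numbers made with featureCounts 1.6.0 over exons of the Ensembl 88 annotation of GRCm38 with no strand option, from alignments named for STAR, per the file headers. Other tools stand in the submitters' processing notes, among them HISAT2 2.0.4 and StringTie 1.3.4d, with GRCm39 as the build; the headers were followed. Poly(A) RNA was sequenced as paired ends from stranded libraries, per the labels' protocols. Counting without strand leaves overlapping and antisense genes, and gene copies, uncertain.

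Totals were 14083958 to 20256049 counts, and 0 pairs of libraries were identical. Symbols were matched for 50462 of 50686 genes. CPM use TMM factors computed over all 30 libraries on the 17568 genes that filterByExpr kept (minimum count 10). Classes were described with no test, as differences of mean log2(CPM + 0.5), 4-fold or more and without overlap. FAD4T and wild type were tested with edgeR 4.0.16 in R 4.3.3 (quasi-likelihood, sex as covariate, Benjamini-Hochberg at 0.05, 9 residual degrees of freedom), with DESeq2 1.42.0 as an alternative, and without the 4 libraries (5 degrees of freedom). The code was tested on simulated data. SE is the size of the log2 fold change divided by the square root of F.

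The libraries, 32 gene lists (289 genes) and tests were chosen with earlier results of these data known. Genes were named as list members, or as the 15 largest higher and 10 largest lower without overlap at 5 CPM or more in the higher class, leaving out unnamed gene models, pseudogenes and antigen receptor segments, and some of these genes are not reported here. For the genotype tests the rule took calls, or the 3 smallest p in each direction. A symbol on more than 1 identifier was read from the one with more counts. Title numbers 1 to 3 were checked as pairs: 6 of 18 same-numbered pairs correlated above 0.1 (−0.482 to 0.514), so they were not treated as pairs. Other settings tried were other scalings, no filter, a pseudocount of 0.1, a 2-fold limit, each library left out, the 2 thymus-poor FAD4T or 6 wild-type libraries alone, and the wild-type males numbered 4 to 6 added.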

Additional observations from a re-analysis of the deposited data

Results flagged for a closer look

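Chance alone flags about 1 in 20 checks of this kind when they are independent, but the checks here share the same 12 libraries. Over 28 checks of 6 libraries each, 8 values stood far from those of the other 5 libraries of their genotype at 2 months. Wild-type female 1 did so for the share of mitochondrial transcripts (5.945%, others 1.935% to 3.401%), the sum of the 7 thymocyte genes (18.9 CPM, others 0.902 to 1.68), the thyroid follicle level (7.22, others 7.95 to 8.32) and the liver level (6.86, others 0.40 to 0.89). Wild-type male 1 stood apart for the cortical thymic epithelium level (5.0, others 3.59 to 3.93). The parathyroid level was low in FAD4T female 1 (3.93, others 9.23 to 10.18) and in wild-type female 2 (4.37, others 9.47 to 11.17), and the skeletal muscle level was low in FAD4T female 3 (1.27, others 4.84 to 6.43). Outside the comparison, FAD4T male 1 of 8 months held the 7 thymocyte genes at 64.9 CPM, against 0.783 to 23.9 in the other 17 libraries.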

How the results depend on the processing

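The genotype count depended on the settings. It was 1 gene in the reported fit, 0 without the 4 thymus-rich libraries, 0 with DESeq2 size factors in edgeR, 1 with no filter, 137 with the wild-type males numbered 4 to 6 added, and 283 by DESeq2. Leaving out 1 library gave 0 to 45 genes, with 45 without FAD4T female 3 and 0 in the other 11 fits. Chosen after seeing the data, DESeq2 without the 4 libraries called 9, and leaving out each of the 8 remaining libraries in edgeR gave 0 to 2, the 2 without wild-type female 1 being Ighm and Igkc. With the title number as a replicate block 1 gene was called, Igkc (adjusted p = 0.0405) and not Ighm (0.0924), and 4 of 12 libraries correlated best with their own number. The cause of these shifts was not tested, and the 283 genes called by DESeq2 included markers that chose the libraries.

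The 108 higher genes became 178 with a pseudocount of 0.1 and 422 at a 2-fold limit, and leaving out 1 library gave 98 to 144. The 10 lower genes became 5 with total counts in place of TMM, 38 against the thymus-poor FAD4T libraries only, 20 with a pseudocount of 0.1 and 262 at a 2-fold limit. Leaving out 1 library gave 8 to 32 of them, 32 without wild-type female 1. The median difference of the 7 thymocyte genes, 4.62, was 5.66 with a pseudocount of 0.1 and 4.28 to 4.97 with 1 library left out. Of the 25 genes named by rule for the classes, 0 changed sign under the settings run, with 26 values moving by more than 1 SD and 399 by less. Ptcra, with 7 counts in FAD4T male 3, and other genes near 0 are limited by depth.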
